A study of Mus musculus with 16 samples.

Results

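Expression of 31 genes of cholesterol and fatty acid synthesis was followed in mouse blastocysts treated with kinase inhibitors. The genes were 19 enzymes of the sterol pathway (the "sterol steps"), 6 genes grouped as SREBP regulators and 6 genes of fatty acid synthesis. The regulators were Stard4, Insig1, Insig2, Srebf1, Srebf2 and Scap. In this group Srebf1 and Srebf2 encode the SREBP transcription factors themselves, and Stard4 carries cholesterol between membranes. The fatty acid genes were Acly, Acaca, Fasn, Elovl6, Scd1 and Scd2. All 31 genes were looked for by symbol among the probe sets whose platform annotation names 1 gene alone. Msmo1 was also looked for under its older name, Sc4mol. Of the 31 genes, 30 had a probe set of their own, among 18193 genes that had one in all. No probe set was named for Acat2, an acetyl-CoA acetyltransferase at the entry to the pathway, in the annotation used, which left 18 sterol steps. The 30 genes had 71 probe sets, and each gene is described by its brightest, the one with the highest mean signal on the 430 2.0 arrays. All 30 passed the filter on dim probe sets, as did 12614 genes in all. Some other enzymes of the pathway are not analysed here.

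The samples were total RNA of preimplantation mouse embryos at the blastocyst stage, in 4 groups of 3. The embryos had been exposed to 20 µM SB203580, used as an inhibitor of p38 kinases, to 25 µM SP600125, used as an inhibitor of JNK, or to 20 µM U0126, used as an inhibitor of MEK. The sample titles mark the controls as WT. The labels name no treatment for them and do not say whether these received the inhibitors' solvent. They give no strain, no exposure time and no number of embryos per sample, and do not state that separate cultures gave the replicates, so the p-values measure only the spread between these samples. Replicate 1 of each group was read on a pair of arrays, 430A and 430B, after a small sample labelling assay, and replicates 2 and 3 were read on 430 2.0 arrays after a two-cycle assay. Differences were therefore taken within an array type. Values are deposited signals on a linear scale, and changes are differences in log2(signal + 12.6) with standard errors from limma. A gene is called where the p-value, adjusted over all probe sets tested, is under 0.05.

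Cells build cholesterol from acetyl-CoA through mevalonate, the isoprenoid diphosphates, squalene and lanosterol, and the same acetyl-CoA feeds fatty acid synthesis through malonyl-CoA. Most enzymes of the sterol pathway are known targets of SREBP-2, and those of fatty acid synthesis of SREBP-1. SCAP carries the SREBP precursors from the endoplasmic reticulum to the Golgi, where proteases release the active factors, and INSIG proteins hold SCAP back when sterols are plentiful. Preimplantation embryos use both pathways for the membranes of their dividing cells.

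Array type was the main divide between libraries. Log2 signals of samples of the same array type correlated by 0.932 to 0.958, and those of different types by 0.759 to 0.788. Median array signal on the 430 2.0 arrays was higher with U0126 (77.7 and 83) than in the other groups (61.1 to 68.9). Actin signal at the 3' end over that at the 5' end, which reads out RNA quality and labelling length, was 1.58 to 1.75 on the 430 2.0 arrays. For replicate 1 (430A) it ran from 1.62 with U0126 through 2.47 (control) and 2.81 (SB203580) to 3.66 with SP600125, the inhibitor with the most calls among members. Markers of the blastocyst's own lineages were measured: 7 of 7 trophectoderm, 6 of 6 inner cell mass and 13 of 13 primitive endoderm genes passed the filter. Of cells that could have been carried along, no cumulus or granulosa cell marker passed (0 of 5), while 3 of 5 uterine and oviduct and 2 of 4 blood markers did. Of all genes with a probe set of their own, 12614 of 18193 passed, so passing alone does not show such cells. On the 430 2.0 arrays the summed signal was 347.1 to 484.5 for the uterine and oviduct markers and 231.6 to 539.6 for the blood markers. Lineage markers differed between groups, primitive endoderm markers with every inhibitor. Their summed signal on the 430 2.0 arrays ranged from 49606 to 51909.8 in the controls, from 41177.3 to 42818.8 under SB203580, from 35345.8 to 37795.1 under SP600125 and from 33524.9 to 42713.8 under U0126. Replicate 1 gave 30231.9 for the control, 20924 under SB203580, 19569.5 under SP600125 and 21327.3 under U0126. Of the 13 genes, 1 was called lower with SB203580 (median log2 change -0.62), 9 with SP600125 (-1.33) and 2 with U0126 (-0.60). Of all tested genes 0.492%, 0.523% and 0.412% were called lower with these inhibitors in that order. Gata6 went the other way with SP600125. Its signal was 3815.4, 5278.8 and 5178.5 in replicates 1, 2 and 3 against 2719.6, 4895 and 5088.3 in the controls. Pdgfra overlapped the controls with SB203580. Inner cell mass markers had median changes of 0.30 with SB203580, 0.07 with SP600125 and 0.84 with U0126. With U0126 2 of 6 were called higher, against 0.246% of all tested genes. Their summed signal on the 430 2.0 arrays was 11090.8 to 11592.3 with U0126 and 8175.5 to 9080.4 in the controls, and in replicate 1 it was 6188 against 3308. Of the trophectoderm markers 1 of 7 was called lower with SP600125 and none with the other inhibitors. Their summed signal was 93203.7 to 96232.5 with SB203580 and 102779 to 112471 in the other groups on the 430 2.0 arrays. The part of these lineage differences in the results on sterol and fatty acid genes was not tested. In bulk samples, fewer cells of a type and less RNA per cell cannot be told apart.

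Promoter sequence was looked at because many members lay below the controls with the same inhibitors. RefSeq windows (build GRCm38.p6) of 300 bases, from 250 before to 50 after a start site, were matched by symbol to 25 of the 31 genes, which had 33 windows. Windows were not matched for Fdft1, Sqle, Fdps, Stard4, Scd1 and Scd2. The CCAAT box, the letters CCAAT on either strand and the known binding letters of NF-Y, a partner of SREBP, was found in 22 of 33 member windows (66.7%) and in 37.4% of all 32851 windows. Among sterol steps it was found in 15 of 19 windows, belonging to 15 of the 16 genes matched, and in fatty acid genes in 2 of 4 windows. The full set of windows was not limited to genes that passed the signal filter. For Pmvk, Idi1, Cyp51 and Nsdhl, called against control, the most boxes in 1 window were 1, 2, 1 and 4. Among sterol steps tested and not called against control, this ranged from 1 in Lss to 5 in Mvk. A link between boxes and changes was not tested. The GC box, GGGCGG on either strand, was in 72.7% of member windows and 35.7% of all, and the E-box, CACGTG, in 18.2% and 7.15%. The SREBP motif in the form CACNCCAC, on either strand, was in 3 member windows (9.09%, against 6.24% of all), those of Acat2, Hmgcs1 and Insig1. A match describes letters, not a site. The 250 bases before the start site are shown for 4 sterol steps and for Fasn. Cyp51 and Nsdhl were called with more than 1 inhibitor, Idi1 with SP600125 alone against control, and Hmgcs1 holds the SREBP letters. Fasn is the fatty acid gene with the most CCAAT boxes among those matched and is not typical of them. It holds 3, where Acly holds 1 and Acaca and Elovl6 hold 0. All are read 5′ to 3′ on the gene's strand. Capitals mark CACNCCAC and the CCAAT box, which reads ATTGG where it lies on the opposite strand. In Fasn a box on each strand overlaps the other.
Hmgcs1: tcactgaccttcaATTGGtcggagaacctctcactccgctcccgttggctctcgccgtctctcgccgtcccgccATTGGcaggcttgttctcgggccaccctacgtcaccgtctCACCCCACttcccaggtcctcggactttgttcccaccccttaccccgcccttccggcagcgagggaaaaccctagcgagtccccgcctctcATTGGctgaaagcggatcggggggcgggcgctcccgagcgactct
Idi1: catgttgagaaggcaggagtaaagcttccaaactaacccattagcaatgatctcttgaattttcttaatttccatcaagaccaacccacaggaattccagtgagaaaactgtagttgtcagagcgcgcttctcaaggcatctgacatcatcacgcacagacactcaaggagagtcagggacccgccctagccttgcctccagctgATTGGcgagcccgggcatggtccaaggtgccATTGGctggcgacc
Cyp51: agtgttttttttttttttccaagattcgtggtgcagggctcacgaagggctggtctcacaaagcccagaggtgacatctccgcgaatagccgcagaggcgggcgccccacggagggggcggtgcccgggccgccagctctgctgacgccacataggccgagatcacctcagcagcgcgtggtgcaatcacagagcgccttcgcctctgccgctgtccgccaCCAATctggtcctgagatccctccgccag
Nsdhl: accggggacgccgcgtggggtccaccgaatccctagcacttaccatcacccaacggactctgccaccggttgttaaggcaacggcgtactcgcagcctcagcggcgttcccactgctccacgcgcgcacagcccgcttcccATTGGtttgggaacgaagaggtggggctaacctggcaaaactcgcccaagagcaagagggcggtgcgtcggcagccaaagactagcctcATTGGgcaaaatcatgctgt
Fasn: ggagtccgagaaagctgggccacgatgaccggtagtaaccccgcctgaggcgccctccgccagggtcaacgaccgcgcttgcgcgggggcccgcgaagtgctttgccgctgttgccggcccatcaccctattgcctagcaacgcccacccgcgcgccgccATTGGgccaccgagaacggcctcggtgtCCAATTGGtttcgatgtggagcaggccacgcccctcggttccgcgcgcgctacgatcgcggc
The Hmgcs1 stretch lies at chr13:119690101-119690350 on the plus strand, that of Idi1 at chr13:8885356-8885605 on the plus strand and that of Nsdhl at chrX:72918271-72918520 on the plus strand. The Cyp51 stretch lies at chr5:4104698-4104947 and that of Fasn at chr11:120824548-120824797, both on the minus strand. All are upstream of the annotated transcript. Of the boxes shown, the one nearest the start site began 45 bases before it in Hmgcs1, 14 in Idi1, 29 in Cyp51, 20 in Nsdhl and 59 in Fasn. Hmgcs1 and Nsdhl also held boxes after the start site, which are not shown and of which the first lay nearer to it, at base 11 in Hmgcs1 and base 9 in Nsdhl.

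The first comparison asked what the p38 inhibitor did to these genes. With SB203580, sterol steps Fdft1, Cyp51 and Nsdhl fell to between 0.444 and 0.568 of the control level on the scale with the constant added. Of the 30 changes 24 were below 0 and 6 above, where 49% of all tested genes were below 0. Of 30 genes, 3 (10%) were called lower and none higher, where 0.492% of all tested genes were called lower and 0.143% higher. All 3 were sterol steps. The median log2 change was -0.45 over the 18 sterol steps, -0.23 over the 6 regulators and -0.18 over the 6 fatty acid genes, against 0.0059 over all tested genes. Every SB203580 sample lay below every control of its array type for 10 of 18 sterol steps, 4 of 6 regulators and 1 of 6 fatty acid genes, together 50% of members against 13.7% of all genes.

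The second comparison asked the same of the JNK inhibitor. With SP600125, Pmvk, Idi1, Fdft1, Sqle, Cyp51 and Nsdhl of the sterol steps fell, as did the desaturases Scd1 and Scd2. These were 8 of 30 genes (26.7%), and no member was called higher. Of all tested genes 0.523% were called lower and 0.381% higher. Of the 30 changes 28 were below 0 and 2 above, where 50.3% of all tested genes were below 0. The median log2 change was -0.55 over sterol steps, -0.31 over regulators and -0.44 over fatty acid genes, against -0.0016 over all genes. All samples lay below the controls for 11 of 18 sterol steps, 5 of 6 regulators and 6 of 6 fatty acid genes, together 73.3% of members against 13.2% of all genes. The count of called members was 3 without control replicate 3, 4 without control replicate 2 or SP600125 replicate 2, 5 without SP600125 replicate 3, and 6 or 7 without each of the others.

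With the MEK inhibitor, 18 of the 30 changes were below 0 and 12 above. Of the members, Nsdhl alone fell with U0126, 1 of 30 genes (3.33%), where 0.412% of all tested genes were called lower, and no member was called higher (0.246% of all genes). The median log2 change was -0.095 over sterol steps, -0.089 over regulators and 0.05 over fatty acid genes, against 0.048 over all genes. All samples lay below the controls for 5 members (16.7%, against 9.99% of all genes), namely Pmvk, Sqle, Nsdhl, Ebp and Insig1, and above them for Hmgcs1 and Dhcr7, where 14.4% of all genes lay above. No member was called without control replicate 2 or control replicate 3, and 2 were without U0126 replicate 1. Set side by side for SB203580, SP600125 and U0126, the median change of sterol steps was -0.45, -0.55 and -0.095, that of primitive endoderm markers -0.62, -1.33 and -0.60 and that of inner cell mass markers 0.30, 0.07 and 0.84. Trophectoderm markers had medians of -0.20, 0.038 and -0.091 in the same order, with 7 of 7 below 0 for SB203580. The markers' part in the sterol values was not tested.

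These 3 comparisons share the same control samples. They also share limma's intensity trend, on which each call rests. Without the trend no member was called in any comparison, and calls over all probe sets dropped from 105 to 1 with SB203580, from 160 to 8 with SP600125 and from 121 to 2 with U0126. Members with an unadjusted p under 0.05 then numbered 11 instead of 15 with SB203580, 13 instead of 17 with SP600125 and 3 instead of 4 with U0126. With the trend, 11.4%, 10.2% and 13.4% of all genes tested had such a p with these inhibitors in that order. The trend allows bright probe sets a smaller spread. The median residual SD was 0.175 in the brightest quartile of probe sets, which holds 23 of the 30 members, and 0.624 in the dimmest.

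**Figure D1:**
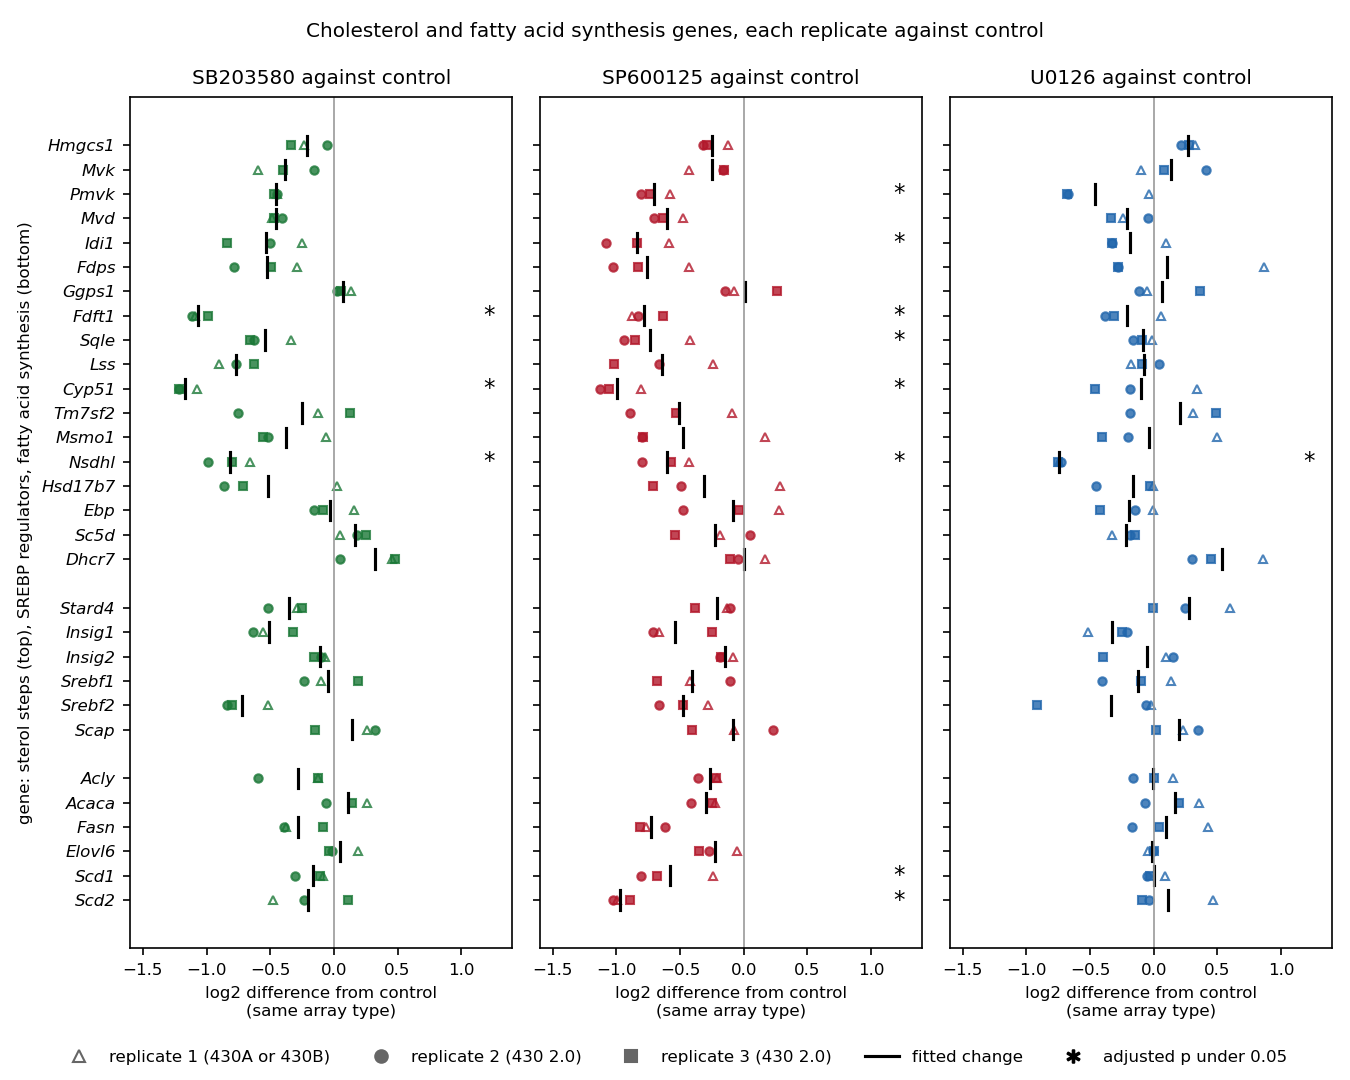
Log2 difference of each replicate from the controls on the same array type (x axis) for the 30 genes (rows), in 1 panel per inhibitor. Triangles are replicate 1, circles replicate 2 and squares replicate 3, black ticks are fitted changes, and stars mark genes with an adjusted p under 0.05. With SB203580 3 genes and with SP600125 8 genes are starred on the side below 0, and with U0126 Nsdhl alone.

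The early steps make mevalonate and turn it into isoprenoid diphosphates. Idi1, which isomerises isopentenyl diphosphate, fell with SP600125. Its signal in replicates 1, 2 and 3 was 2081, 7496.5 and 7089 in the controls, 1746, 5135 and 4058 under SB203580, 1382, 3431 and 4080.3 under SP600125 and 2221, 5799 and 5801 under U0126. All SP600125 samples lay below the controls of their array type, and so did the SB203580 samples. U0126 samples lay below the controls on the 430 2.0 arrays and above the control on the 430A array. The log2 change was -0.84 ± 0.13 with SP600125 (SE, n = 3, adjusted p = 0.00378), so that it fell by 44.0%, against -0.53 ± 0.13 with SB203580 (adjusted p = 0.0946) and -0.19 ± 0.13 with U0126 (adjusted p = 0.598). The call with SP600125 was kept without each sample in turn.

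Pmvk, phosphomevalonate kinase, also fell with SP600125. Its signal was 1122, 3145 and 3171.5 in the controls, 822, 2320 and 2278 under SB203580, 746.5, 1802.5 and 1888 under SP600125 and 1095, 1977 and 1963 under U0126. Every treated sample lay below the controls, and on the 430A array U0126 was close to the control. The change was -0.71 ± 0.14 with SP600125 (adjusted p = 0.0318), -0.45 ± 0.14 with SB203580 (adjusted p = 0.259) and -0.46 ± 0.14 with U0126 (adjusted p = 0.193). The Pmvk call was lost without any 1 of the 6 samples compared, its adjusted p reaching 0.265 over all alternatives.

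Hmgcs1, the synthase that condenses acetoacetyl-CoA with acetyl-CoA, and Fdps, farnesyl diphosphate synthase, were not called against control. The Hmgcs1 signal was 4358, 14692 and 12951 in the controls, 3694, 13263 and 10930.3 under SB203580, 3994, 11013.5 and 11277.5 under SP600125 and 5464, 15981 and 16678 under U0126. It stood below the controls in every SP600125 sample and above them in every U0126 sample, with changes of -0.25 ± 0.10 (adjusted p = 0.49) and 0.27 ± 0.10 (adjusted p = 0.29). The Fdps signal was 698, 1897 and 2754 in the controls, 568, 1322 and 1621 under SB203580, 514, 1118 and 1281 under SP600125 and 1284, 1881 and 1874.5 under U0126. SB203580 and SP600125 samples lay below the controls, while with U0126 the 430A array was high and the 430 2.0 arrays were just below the lower control. The Fdps change was -0.76 ± 0.21 with SP600125 (adjusted p = 0.153) and -0.52 ± 0.21 with SB203580 (adjusted p = 0.399).

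The other early genes passed no test. Mvd, which decarboxylates mevalonate diphosphate, had changes of -0.46 ± 0.17 with SB203580 and -0.60 ± 0.17 with SP600125, with all samples of both groups below the controls, and -0.21 ± 0.17 with U0126. Mvk, mevalonate kinase, had -0.38 ± 0.20, -0.25 ± 0.20 and 0.13 ± 0.20 with the same inhibitors in that order, and its groups overlapped. Ggps1 makes geranylgeranyl diphosphate, which leaves the route to sterols for protein prenylation. Its changes were 0.072 ± 0.24, 0.013 ± 0.24 and 0.063 ± 0.24, all near the median of all genes. On this probe set every SB203580 sample (112.7, 447.9 and 456.7) read above the controls of its array type (101.6, 436.6 and 441.5).

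All 3 enzymes between farnesyl diphosphate and lanosterol lay lower in every SB203580 and SP600125 sample than in the controls of its array type. Fdft1, squalene synthase, commits farnesyl diphosphate to sterols and fell with both. Its signal was 1922, 8217 and 8922.5 in the controls, 896, 3942.5 and 4312 under SB203580, 1042, 4805 and 5503 under SP600125 and 2001, 6569.5 and 6909 under U0126. The SB203580 samples were the lowest on each array type, the SP600125 samples came next, and both stood apart from the controls. The change was -1.06 ± 0.13 with SB203580 (adjusted p = 0.00162), so that it fell by 52.2%, and -0.78 ± 0.13 with SP600125 (adjusted p = 0.00562), with -0.21 ± 0.13 for U0126 (adjusted p = 0.529). Both calls were kept without each sample in turn. The brightest probe set ends in _x_at, a sign that its probes may also match other transcripts. A further Fdft1 probe set, 1448130_at, was lower with SB203580 too (-0.94 ± 0.17, adjusted p = 0.0164) and was not called with SP600125 (-0.52 ± 0.17, adjusted p = 0.282).

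Sqle, squalene epoxidase, fell with SP600125. Its signal was 2438, 5304 and 4723 in the controls, 1926, 3241 and 3172 under SB203580, 1817, 2598 and 2765 under SP600125 and 2420.3, 4474 and 4706 under U0126. Values with SB203580 lay between those of SP600125 and the controls, and values with U0126 just below the controls. The change was -0.74 ± 0.12 with SP600125 (adjusted p = 0.00654), -0.54 ± 0.12 with SB203580 (adjusted p = 0.0677) and -0.087 ± 0.12 with U0126 (adjusted p = 0.825). Without control replicate 2 the SP600125 call was lost (adjusted p = 0.0507). Lss, lanosterol synthase, which closes the sterol rings, had a signal of 1013 to 1804 in the controls, 536 to 1099 with SB203580 and 834 to 1069 with SP600125. All treated samples of both groups lay below the controls of their array type, with changes of -0.77 ± 0.18 (adjusted p = 0.0811) and -0.64 ± 0.18 (adjusted p = 0.171) that passed no test, and with U0126 the change was -0.075 ± 0.18.

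From lanosterol on, Cyp51 and Nsdhl were the steps called. Cyp51, lanosterol demethylase, fell with SB203580 and SP600125. Its signal was 634, 1896 and 2425 in the controls, 294, 913 and 918 under SB203580, 356, 974 and 1025 under SP600125 and 804, 1881.5 and 1555 under U0126. On both array types the p38 and JNK inhibitor samples clustered well below the controls. The U0126 samples lay above the control on the 430A array and below both controls on the 430 2.0 arrays, replicate 2 only just. The change was -1.17 ± 0.17 with SB203580 (adjusted p = 0.00494), so that it fell by 55.6%, -1.0 ± 0.17 with SP600125 (adjusted p = 0.009), so that it fell by 49.9%, and -0.10 ± 0.17 with U0126 (adjusted p = 0.858). The SB203580 call was kept without each sample in turn. The SP600125 call was lost without control replicate 3 (adjusted p = 0.0766) or SP600125 replicate 2 (adjusted p = 0.052). Both were lost when the gene's 3 probe sets were averaged (adjusted p = 0.112 and 0.15). The dimmer pair had changes of -1.26 ± 0.40 and -0.78 ± 0.61 with SB203580, in the same direction but with wider errors. With U0126 the brighter of this pair, 1422533_at, lay below the controls in every sample. Its signal in replicates 1, 2 and 3 was 87.6, 385.1 and 220.2 with U0126 and 127.1, 692.5 and 637.8 in the controls. The dimmest, 1422534_at, overlapped the controls with U0126.

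Nsdhl, a sterol dehydrogenase that helps remove a methyl group from the sterol ring, was the member called with all 3 inhibitors. Its signal was 2061, 3885 and 3984 in the controls, 1299, 1978 and 2251 under SB203580, 1522, 2260.4 and 2637 under SP600125 and 1223, 2367 and 2335.5 under U0126. Every treated sample lay below every control of its array type. The change was -0.82 ± 0.12 with SB203580 (adjusted p = 0.00565), -0.60 ± 0.12 with SP600125 (adjusted p = 0.0329) and -0.74 ± 0.12 with U0126 (adjusted p = 0.0105), and no pair of inhibitors differed in it by the test. The SB203580 call was kept without each sample in turn, and the SP600125 call was lost without any 1 of the 6 samples compared. The U0126 call was lost without control replicate 2 (adjusted p = 0.0595) or control replicate 3 (adjusted p = 0.0538).

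The remaining late steps were not called in any comparison and differed among themselves. Msmo1, a methylsterol oxidase, had changes of -0.38 ± 0.18 with SB203580 and -0.47 ± 0.18 with SP600125, but the latter was 0.16 on the array of replicate 1 and -0.80 and -0.79 in replicates 2 and 3. Hsd17b7, which reduces the ketone left after Nsdhl, also differed between array types on its brightest probe set. Its -0.52 ± 0.19 for SB203580 was made up of 0.028 in replicate 1 and -0.87 and -0.72 in the others. A dimmer Hsd17b7 probe set, 1448865_at, was below the controls (293.5, 143.8 and 208.9) in every SB203580 sample (203.4, 98.7 and 120.3). The probe sets 1417871_at and 1440057_at overlapped the controls with SB203580. Tm7sf2, a sterol reductase, had -0.25 ± 0.27 with SB203580 and -0.51 ± 0.27 with SP600125. The last enzymes lay nearer to 0 or above it. Ebp, a sterol isomerase, had -0.028 ± 0.14, -0.083 ± 0.14 and -0.19 ± 0.14 with SB203580, SP600125 and U0126. Sc5d, a sterol desaturase, had 0.16 ± 0.26, -0.23 ± 0.26 and -0.22 ± 0.26 in the same order. Dhcr7, the reductase of dehydrocholesterol, had 0.33 ± 0.17, 0.0044 ± 0.17 and 0.53 ± 0.17, the last with all U0126 samples above the controls and an adjusted p of 0.196.

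By stage, the median change with SB203580 was -0.45 over the 7 early enzymes, -0.77 over the 3 from squalene to lanosterol and -0.31 over the 8 later ones. With SP600125 it was -0.60, -0.74 and -0.39, and with U0126 0.063, -0.087 and -0.13. For the later enzymes the replicate medians with SB203580 and SP600125 were nearer to 0 on the arrays of replicate 1. They were 0.038, -0.65 and -0.56 in replicates 1, 2 and 3 with SP600125, and -0.019, -0.63 and -0.32 with SB203580. Over all 18 sterol steps the replicate medians were -0.27, -0.51 and -0.48 under SB203580, -0.33, -0.75 and -0.63 under SP600125, and -0.0055, -0.19 and -0.22 under U0126. With SB203580 and SP600125 the median was thus below 0 on both array types, and nearer to 0 on the arrays of replicate 1. These array types also differ in labelling assay, and the 2 cannot be told apart.

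**Figure D2:**
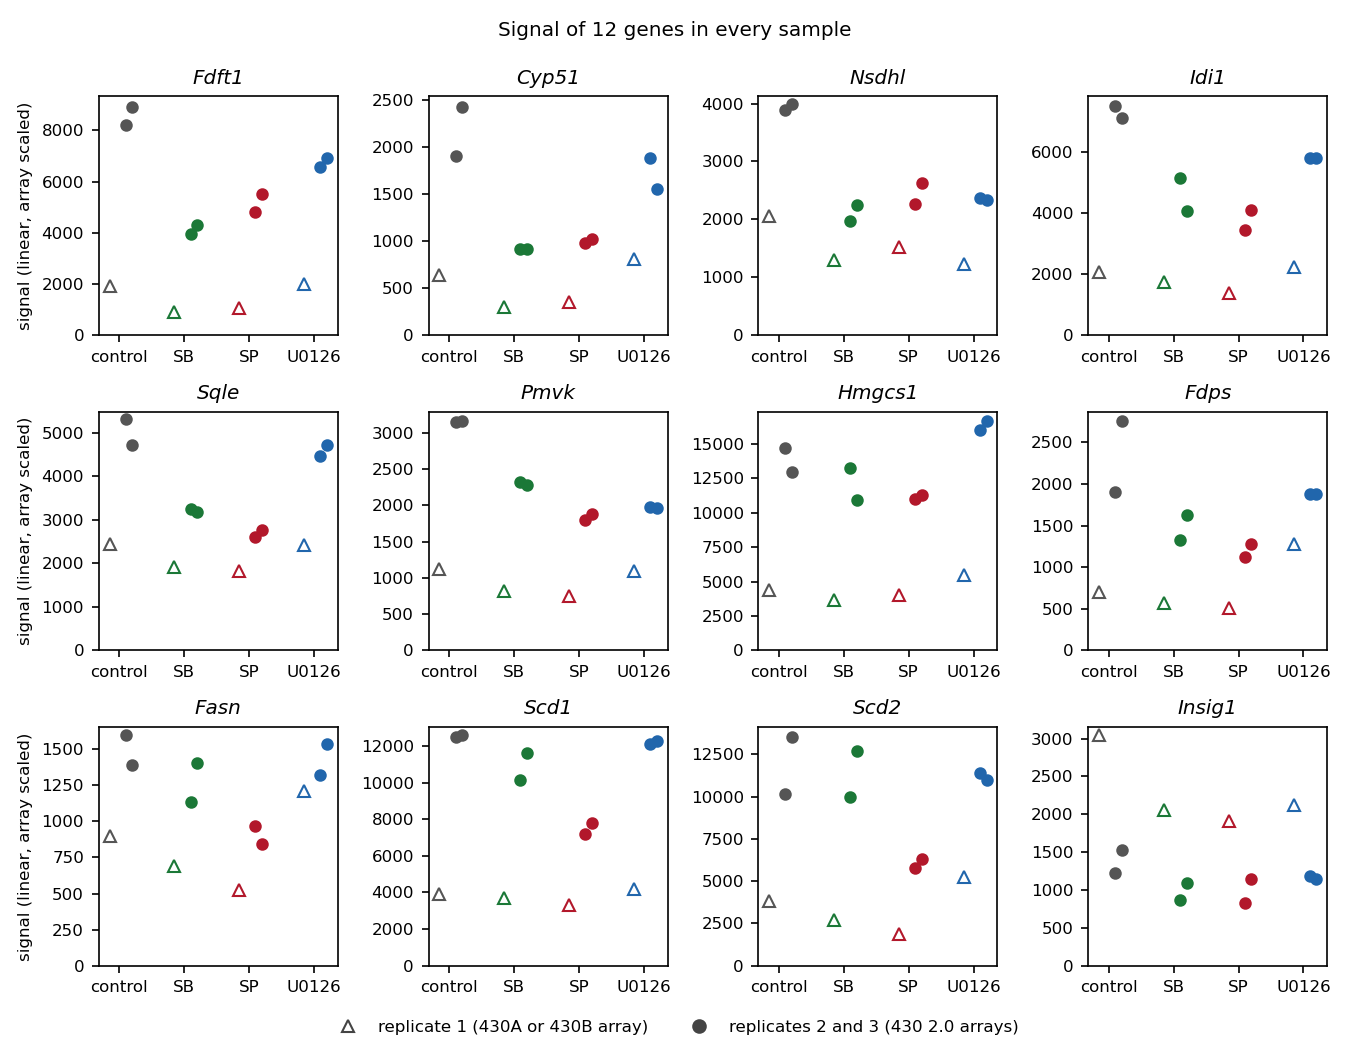
Deposited signal (y axis, linear, from 0) of 12 genes in every sample, by group (x axis). Open triangles are replicate 1 (430A or 430B arrays) and filled circles replicates 2 and 3 (430 2.0 arrays), to be compared only within a symbol. For Fdft1 and Cyp51 the SB203580 and SP600125 points lie below the controls of the same symbol, for Nsdhl those of all 3 inhibitors do, and for Scd1 and Scd2 the SP600125 points stand lowest.

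None of the 6 SREBP regulators was called by limma in any comparison. At an unadjusted p under 0.05 there were 3 of 6 with SB203580, 2 with SP600125 and 0 with U0126 against control, where the shares of all genes were 11.4%, 10.2% and 13.4%. Insig1, the sterol-regulated anchor of SCAP and itself a known SREBP target, had a signal of 3043, 1223 and 1527 in the controls, 2063, 874 and 1089 under SB203580, 1915, 829.5 and 1148 under SP600125 and 2119.9, 1181 and 1146 under U0126. All treated samples lay below the controls of their array type. The changes were -0.51 ± 0.16 (adjusted p = 0.238), -0.54 ± 0.16 (adjusted p = 0.203) and -0.33 ± 0.16 (adjusted p = 0.427) with SB203580, SP600125 and U0126. Srebf2, which encodes SREBP-2, had a signal of 288 to 350 in the controls, 162 to 240 with SB203580, 185 to 285 with SP600125 and 153 to 344 with U0126. SB203580 and SP600125 samples lay below the controls, and U0126 samples overlapped them, replicate 3 being low. Its change of -0.72 ± 0.27 with SB203580 was the furthest from 0 in this group but had an adjusted p of 0.363, and with SP600125 it was -0.48 ± 0.27. A dimmer Srebf2 probe set, 1426744_at, read 129.1, 131.3 and 218.5 in the controls and 241.1, 224.3 and 260.5 with U0126. Every U0126 sample thus lay above the controls of its array type. With SB203580 every sample lay below them (114, 124 and 119.3), and with SP600125 replicate 1 was above (141.1) and the others below (117 and 130.3).

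The other regulators were not called either. Srebf1, which encodes SREBP-1, had -0.048 ± 0.19 with SB203580, -0.40 ± 0.19 with SP600125 and -0.13 ± 0.19 with U0126. Stard4, which carries cholesterol between membranes, had -0.35 ± 0.16, -0.21 ± 0.16 and 0.28 ± 0.16 in the same order, lower in all SB203580 and SP600125 samples. Insig2, the second anchor of SCAP, had -0.11 ± 0.16, -0.15 ± 0.16 and -0.052 ± 0.16. Scap itself had 0.15 ± 0.21, -0.088 ± 0.21 and 0.20 ± 0.21, with overlapping groups throughout. The proteases that release SREBP, Mbtps1 and Mbtps2, were not called against control. Mbtps1 had changes of 0.17 ± 0.13 with SB203580, -0.22 ± 0.13 with SP600125 and 0.39 ± 0.13 with U0126, and Mbtps2 had -0.27 ± 0.17, -0.22 ± 0.17 and -0.39 ± 0.17. Both had an unadjusted p under 0.05 with U0126, in opposite directions. Mbtps1 was called lower with SP600125 than with U0126 (-0.61 ± 0.13, adjusted p = 0.0199).

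Of the fatty acid genes, Scd1 and Scd2 fell with SP600125, and no member of this group was called with SB203580 or U0126 against control. They encode stearoyl-CoA desaturases, which put the first double bond into saturated fatty acids. The Scd2 signal was 3796, 10174 and 13527 in the controls, 2721, 9950 and 12664 under SB203580, 1898, 5757.5 and 6294 under SP600125 and 5251, 11406.5 and 10981 under U0126. The SP600125 samples lay far below every other sample of their array type, and the SB203580 and U0126 samples overlapped the controls. The change was -0.97 ± 0.16 with SP600125 (adjusted p = 0.00697), so that it fell by 49.0%, -0.20 ± 0.16 with SB203580 (adjusted p = 0.772) and 0.11 ± 0.16 with U0126 (adjusted p = 0.836). Without control replicate 3 the Scd2 call was lost (adjusted p = 0.0578).

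The Scd1 signal was 3931, 12472 and 12568 in the controls, 3710, 10113 and 11589.7 under SB203580, 3321, 7162 and 7786 under SP600125 and 4180.1, 12091 and 12284 under U0126. SP600125 samples were again the lowest of each array type, by more on the 430 2.0 arrays. The change was -0.58 ± 0.11 with SP600125 (adjusted p = 0.0228), -0.17 ± 0.11 with SB203580 and 0.0035 ± 0.11 with U0126. A second Scd1 probe set, 1415965_at, changed by -0.95 ± 0.14 with SP600125 (adjusted p = 0.00308). It also lay below the controls (1410.5, 2543.9 and 3072.4) in every sample of the other inhibitors, without a call. Its signal was 1073.3, 2219.1 and 2351.2 with SB203580 and 1126.6, 1787.3 and 2173.4 with U0126. The call on the brightest was lost without control replicate 2 (adjusted p = 0.105), control replicate 3 (adjusted p = 0.122), SP600125 replicate 2 (adjusted p = 0.144) or SP600125 replicate 3 (adjusted p = 0.137).

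Fasn, fatty acid synthase, was not called against control. Its signal was 897, 1601 and 1388.5 in the controls, 690.2, 1133 and 1406 under SB203580, 523, 965 and 843.5 under SP600125 and 1209.5, 1319.6 and 1534.5 under U0126. SP600125 samples lay below all others of their array type, with a change of -0.73 ± 0.17 (adjusted p = 0.0646), against -0.28 ± 0.17 with SB203580 and 0.097 ± 0.17 with U0126. Acly, which makes cytosolic acetyl-CoA from citrate, had -0.28 ± 0.13, -0.26 ± 0.13 and -0.0033 ± 0.13 with SB203580, SP600125 and U0126. Acaca, which makes malonyl-CoA, had 0.11 ± 0.14, -0.30 ± 0.14 and 0.16 ± 0.14. Elovl6, which elongates palmitate, had 0.044 ± 0.095, -0.23 ± 0.095 and -0.016 ± 0.095. For these genes too every SP600125 sample lay below every control, and none of the changes passed the test. The replicate medians of the 6 genes were -0.24, -0.52 and -0.52 with SP600125, -0.11, -0.27 and -0.06 with SB203580, and 0.25, -0.059 and 0.0029 with U0126, and with U0126 replicate 2 had the other sign.

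**Figure D3:**
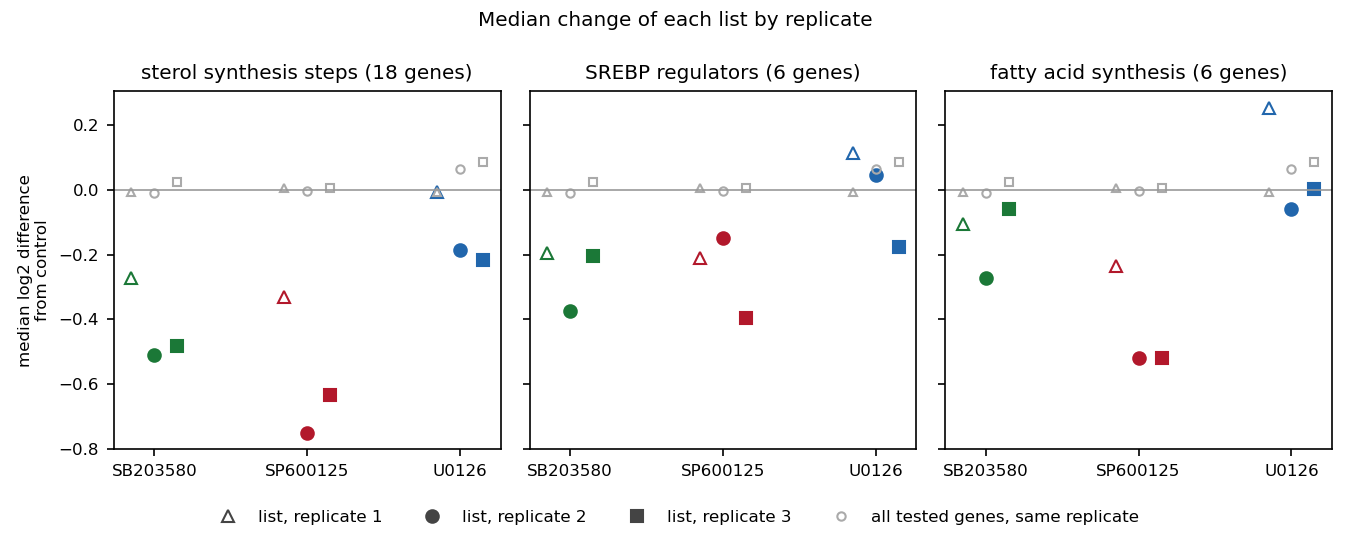
Median log2 difference from control (y axis) of sterol steps (18 genes), SREBP regulators (6) and fatty acid genes (6) in each replicate, by inhibitor (x axis). Coloured triangles, circles and squares are replicates 1, 2 and 3, and grey open symbols are the medians of all tested genes in the same replicates. Sterol steps lie below the grey symbols in every replicate with SB203580 (-0.27 to -0.51) and SP600125 (-0.33 to -0.75), and fatty acid genes lie lowest with SP600125.

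The inhibitors were then compared with each other, in the same fit over all 4 groups. SB203580 and SP600125 differed in 1 member, Scd2, which was higher with SB203580 (0.77 ± 0.16, adjusted p = 0.0311), where 0.309% of all tested genes were called higher and 0.753% lower. The call was kept without SB203580 replicate 1 and lost without any other 1 of the 6 samples, and the largest adjusted p over all alternatives was 0.312. The remaining fatty acid genes had differences in the same direction except Acly, from 0.27 ± 0.095 in Elovl6 to 0.45 ± 0.17 in Fasn, none called, and -0.022 ± 0.13 in Acly. The median over the 6 was 0.41, against 0.013 over all genes. No sterol step differed by the test, and their median difference was 0.078. For Cyp51 the 95% interval of the difference ran from -0.53 to 0.19 and for Fdft1 from -0.55 to -0.019.

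Every member called between U0126 and another inhibitor was lower with the other one. With SB203580, Hmgcs1 (-0.48 ± 0.10, adjusted p = 0.0232), Fdft1 (-0.85 ± 0.13, adjusted p = 0.00228) and Cyp51 (-1.07 ± 0.17, adjusted p = 0.00416) were called lower and none higher. That is 10% of members, where 1.24% of all tested genes were called lower and 0.721% higher. With SP600125, 9 members (30%) were called lower than with U0126 and none higher, where 2.08% of all genes were called lower and 1.92% higher. The sterol steps among them were Hmgcs1 (-0.52 ± 0.10), Idi1 (-0.65 ± 0.13), Fdps (-0.86 ± 0.21), Fdft1 (-0.57 ± 0.13), Sqle (-0.65 ± 0.12) and Cyp51 (-0.89 ± 0.17), with adjusted p-values from 0.00703 to 0.0319. The fatty acid genes were Fasn (-0.83 ± 0.17, adjusted p = 0.0123), Scd1 (-0.58 ± 0.11, adjusted p = 0.00871) and Scd2 (-1.08 ± 0.16, adjusted p = 0.00133). Stard4 was not called with SB203580 (-0.63 ± 0.16, adjusted p = 0.0555), and its probe set 1455011_at was called lower (-0.68 ± 0.15, adjusted p = 0.0304).

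These differences from U0126 depend on which scaling is chosen. With quantile normalization within array type all 25 member calls, those against U0126 included, were kept. The median of all genes was then -0.0076 for SB203580 against U0126 and -0.016 for SP600125 against U0126. Scaling to equal medians moved the deposited median of all genes from 0.048 to -0.165 for U0126 against control. It moved from -0.048 to 0.125 for SB203580 against U0126 and from -0.062 to 0.147 for SP600125 against U0126. With equal medians the share of higher genes among all called genes moved from 36.8% to 74.0% for SB203580 against U0126. For SP600125 against U0126 it moved from 48.0% to 89.6%. It also moved from 22.5% to 7.14% for SB203580 against control, from 37.3% to 6.11% for U0126 against control and from 29.1% to 12.1% for SB203580 against SP600125. Members called lower with SP600125 than with U0126 then numbered 1, Scd2, instead of 9. Relative to the median of all genes, sterol steps with U0126 were at -0.144 as deposited and at -0.154 with equal medians, those with SB203580 at -0.46 and -0.462, and those with SP600125 at -0.552 and -0.553. Several calls against U0126 also rested on single samples. Without 1 sample in turn, the members called lower ranged from 2 to 3 for SB203580 and from 4 (without SP600125 replicate 2) to 9 for SP600125. With only the 2 groups compared in the fit, the calls of Hmgcs1 with SB203580 (0.0698) and Fdft1 with SP600125 (0.074) were lost, the adjusted p being given in brackets. Without 1 sample in turn, the calls of Fdft1 and Cyp51 with SB203580, and of Sqle, Cyp51 and Scd2 with SP600125, were kept. With each gene's probe sets averaged, the Cyp51 calls against U0126 were lost with SB203580 (-0.75, adjusted p = 0.217) and SP600125 (-0.67, adjusted p = 0.201).

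**Figure D4:**
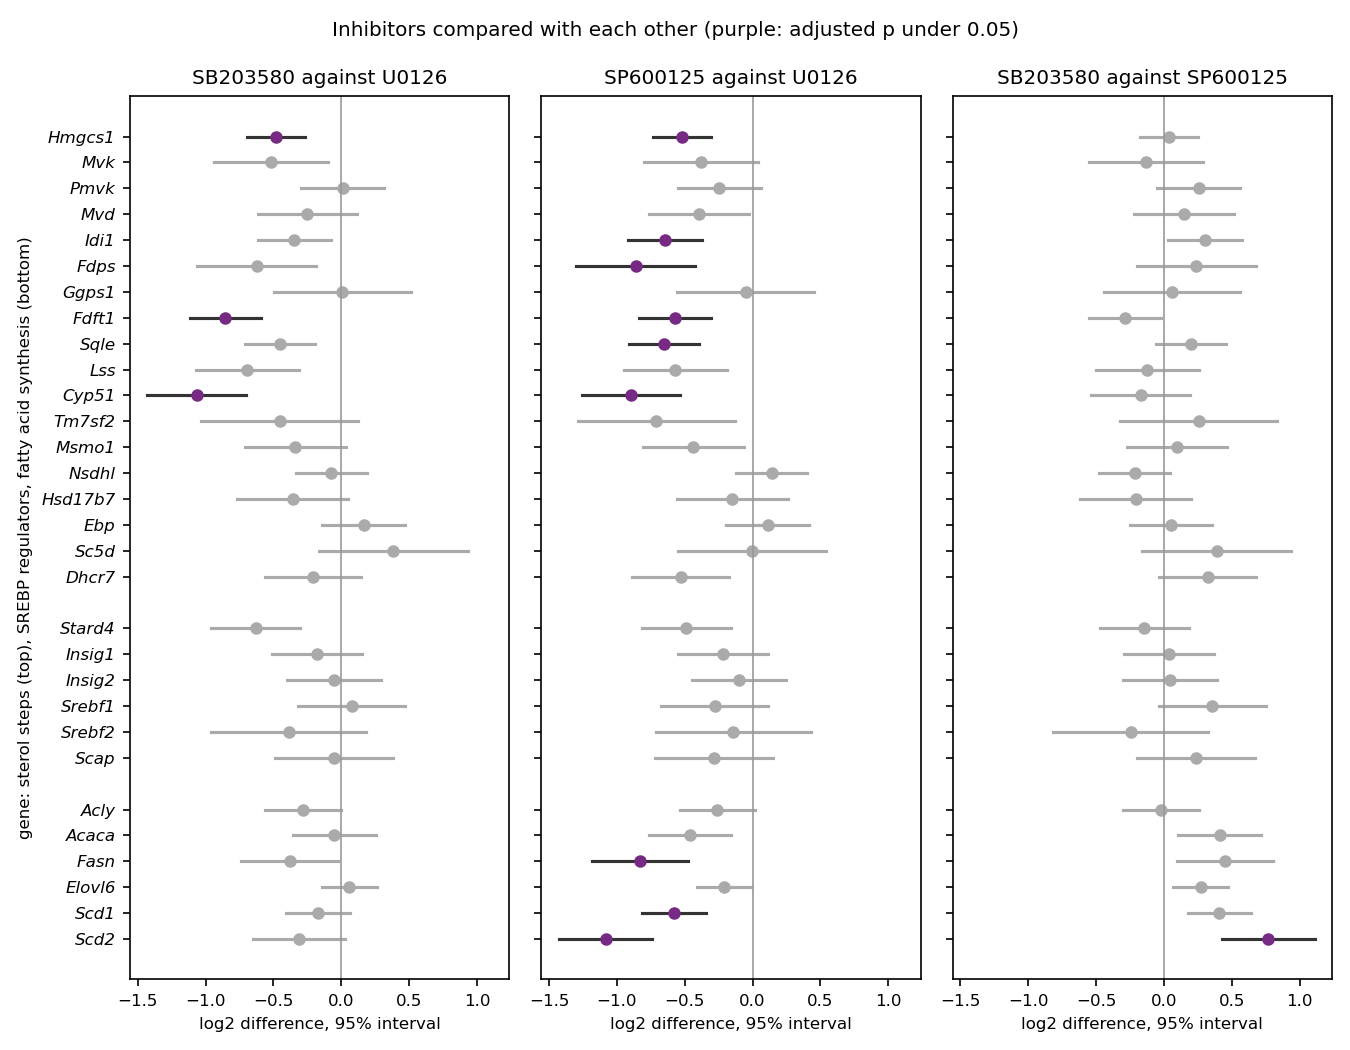
Log2 difference between inhibitors (x axis, first named minus second) for the 30 genes (rows), with 95% intervals. Purple points are genes with an adjusted p under 0.05, and grey points did not pass. Against U0126, 3 genes with SB203580 and 9 with SP600125 lie below 0 and pass, and between SB203580 and SP600125 Scd2 alone passes.

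Genes of neighbouring pathways were mostly not called. Of 9 tested genes of sterol uptake, transport and esterification and 9 of the isoprenoid branches, none was called by limma in any of the 6 comparisons. At an unadjusted p under 0.05, the uptake list had 0 genes with each inhibitor against control, and the isoprenoid list had 1 with SB203580, 0 with SP600125 and 2 with U0126, counts of 9 near the shares of all genes (11.4%, 10.2% and 13.4%). Their medians against control ran from -0.062 to 0.18. The genes furthest from 0 by the test in the first list were Abca1, the cholesterol exporter, with -0.42 ± 0.24 for SB203580, Osbp, an oxysterol-binding protein, with 0.33 ± 0.18 for SP600125, and Npc2, which moves cholesterol out of lysosomes, with 0.18 ± 0.11 for U0126. In the second they were the prenyltransferase subunit Fnta with 0.28 ± 0.096 for SB203580, Nus1, of dolichol synthesis, with -0.26 ± 0.12 for SP600125, and Pggt1b with -0.62 ± 0.25 for U0126.

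Among 18 genes of fatty acid supply, elongation and desaturation, 1 fell against control. Slc25a1, the mitochondrial carrier that exports the citrate used by Acly, had a signal of 4601, 997 and 1092 in the controls, 4249, 850.2 and 1048 under SB203580, 3143.5, 676 and 561 under SP600125 and 5428, 1136 and 1113 under U0126. SP600125 samples lay below all others of their array type, with a change of -0.68 ± 0.14 (adjusted p = 0.0293). Mid1ip1, a partner of acetyl-CoA carboxylase, had a change of -0.80 ± 0.22 with SB203580 (adjusted p = 0.155). Elovl5, a fatty acid elongase, had one of -0.41 ± 0.12 with U0126 (adjusted p = 0.147), and neither was called. The uncalled genes with an unadjusted p under 0.05 with SP600125 went both ways. Fads1 (-0.88 ± 0.28), Mid1ip1 (-0.73 ± 0.22), Acsl3 (-0.53 ± 0.15) and Hsd17b12 (-0.31 ± 0.14) were lower, and Acacb was higher (0.93 ± 0.44). Of 6 fatty acid oxidation genes tested, 3 had an unadjusted p under 0.05 with SB203580, 2 with SP600125 and 2 with U0126. They went both ways, and the list medians were -0.014, 0.19 and 0.029 in that order, against the same shares of all genes. Acadm was lower without a call with SB203580 (-0.47 ± 0.12, adjusted p = 0.118) and U0126 (-0.31 ± 0.12, adjusted p = 0.298). Acadl was higher without a call with SB203580 (0.23 ± 0.091) and SP600125 (0.27 ± 0.091). Cpt1a, which brings fatty acids into mitochondria, rose with SB203580, where 0.143% of all tested genes were called higher. Its signal was 476, 337 and 327 in the controls, 819, 634 and 902 under SB203580, 756.5, 605 and 569 under SP600125 and 659.9, 751 and 581 under U0126. All treated samples lay above the controls of their array type. The change was 1.03 ± 0.20 with SB203580 (adjusted p = 0.0271), 0.75 ± 0.20 with SP600125 (adjusted p = 0.127) and 0.80 ± 0.20 with U0126 (adjusted p = 0.09). Between inhibitors, 4 genes of these lists were called, named here after their values were seen. Against U0126, Slc25a1 was lower with SP600125 (-0.83 ± 0.14, adjusted p = 0.00283). Mid1ip1 was lower with SB203580 (-1.11 ± 0.22, adjusted p = 0.0152) and SP600125 (-1.04 ± 0.22, adjusted p = 0.015). Elovl5 was higher with SB203580 (0.59 ± 0.12, adjusted p = 0.0164), and Acadl, a mitochondrial acyl-CoA dehydrogenase, was higher with SB203580 (0.40 ± 0.091, adjusted p = 0.0388) and SP600125 (0.44 ± 0.091, adjusted p = 0.0136).

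The members' other probe sets gave a second reading of the same samples. Of 33 that were tested, 26 had the sign of the gene's brightest probe set with SB203580, 30 with SP600125 and 17 with U0126, each against control. Called lower against control among them were 1 with SB203580 (Fdft1) and 2 with SP600125 (Idi1 and Scd1), where 0.3% and 0.326% of all tested probe sets were. The Idi1 probe set 1423804_a_at changed by -0.82 ± 0.16 with SP600125 (adjusted p = 0.0241). Scd2 probe set 1415824_at had a change of -1.13 ± 0.26 with SP600125 without a call (adjusted p = 0.0621), and a second Lss probe set, 1426913_at, one of -1.38 ± 0.36 with SB203580 (adjusted p = 0.124). Between SB203580 and SP600125, the Scd1 probe set 1415965_at was called higher with SB203580 (0.63 ± 0.14, adjusted p = 0.0465), where the brightest was not (0.41 ± 0.11, adjusted p = 0.113).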

How the data were processed

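Total RNA of 12 blastocyst samples was read on 16 Affymetrix arrays. Deposited values hold 1 linear signal intensity for each probe set. Every array has a mean of 500 with 2% trimmed at each end, so scaling by the authors can be read from the values. Of the software, background correction and probe summary, nothing is given in the sources used here. The 430A and 430B arrays of replicate 1 were joined by their label number, and the 164 probe sets on both were taken from 430A. Control probe sets were left out. Of 45037 probe sets, 34945 named 1 gene in the platform annotation, 932 several and 9160 none. The 27022 whose mean on the 430 2.0 arrays reached 42.91 (the 40th percentile) were tested on log2(signal + 12.6), the constant being the 20th percentile of signal. The constant makes changes of dim probe sets look smaller.

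The fit used limma 3.58.1 in R 4.3.3 (lmFit and eBayes with an intensity trend) over all 4 groups, with array type as a fixed block. Degrees of freedom were 7 residual and 9.7 prior (median). Two-sided p-values were adjusted by Benjamini and Hochberg's method across the 27022 tested probe sets. The scripts were tested on simulated data. Replicate values are differences from the other group's mean within an array type. Arrays carry no counts, so the number of arrays limits the precision.

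All members were named, those called in any comparison with every sample's signal. Of the neighbouring pathways, genes called against control were named, or else the gene with the largest absolute moderated t. Mbtps2, further uncalled genes of the fatty acid lists and genes called between inhibitors were named after their values were seen. The members and lists were chosen with earlier results of these data known. The differences between replicates 2 and 3 correlated between groups by 0.0183 to 0.0883, so replicate numbers were not taken to pair samples. Alternatives covered the constant, the filter, the scaling, the array type, the trend, the groups fitted, a replicate block, the probe set rule and leaving out each sample.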

Additional observations from a re-analysis of the deposited data

How the results depend on the processing

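The 25 called member values kept their direction under all 12 settings tried and without each sample in turn. All 25 kept their call with an added constant of 1 or 50, without the filter, with the filter at the 60th percentile, with quantile normalization and with a replicate block. The fit with the replicate number as a block called 3 members with SB203580, 8 with SP600125 and 1 with U0126 against control, the same counts as without it, and it changed no call. Of the 25 calls, 23 were kept when probe sets marked _x_at and _s_at were dropped, 21 with only the 2 groups compared, 20 with each gene's probe sets averaged, 17 on the 430 2.0 arrays alone, 13 with median scaling and 0 without the intensity trend. Without the trend the number of members called was 0 in each of the 6 comparisons. For U0126 against control it was 0 on the 430 2.0 arrays alone. For SB203580 against SP600125 it was 0 with median scaling and 2 with probe sets averaged. For SP600125 against U0126 it was 1 with median scaling and 4 on the 430 2.0 arrays alone. With median scaling the U0126 medians were -0.32 over sterol steps, -0.31 over regulators and -0.17 over fatty acid genes, and on the 430 2.0 arrays alone the sterol median was -0.22. Without 1 sample in turn, members called ranged from 3 to 3 with SB203580, from 3 to 7 with SP600125 and from 0 to 2 with U0126 against control, from 0 to 1 between SB203580 and SP600125, from 2 to 3 between SB203580 and U0126 and from 4 to 9 between SP600125 and U0126. The medians of sterol steps, regulators and fatty acid genes ranged from -0.59 to -0.39, -0.31 to -0.19 and -0.30 to -0.074 with SB203580. With SP600125 they ranged from -0.67 to -0.46, -0.36 to -0.21 and -0.51 to -0.38. With U0126 they ranged from -0.20 to -0.056, -0.18 to 0.025 and -0.0071 to 0.12. Of 155 uncalled values, 7 were called under some setting. Beyond the trend and the scaling, whose values stand with the results, the cause of these shifts was not tested. With 3 samples a group, and 1 of them on another array type, moderate changes can be missed.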
